A study of Mus musculus with 24 samples.

Results

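Protocadherins are cadherin-like adhesion molecules of the cell surface, and the data hold 72 genes whose symbols begin with Pcdh among the 25793 gene symbols of the count tables. They were taken by symbol alone. Of these, 58 belong to the alpha, beta and gamma clusters (14 alpha, 22 beta and 22 gamma genes), and 14 are nonclustered genes, named Pcdh and a number. For a pair of the nonclustered genes, RefSeq now uses another name, Cdhr1 for Pcdh21 and Cdhr2 for Pcdh24, so these are cadherin-related genes listed under older symbols. RNA was sequenced from the cerebellum (CB) and hippocampus (HC) of wild type (WT) mice and of 16GsoT/T mice, at postnatal day 14 (P14) and day 35 (P35), in 8 groups of 3 mice each. 16GsoT/T mice are homozygous for the reciprocal translocation T(5G2;8A1)GSO, which breaks between Auts2 and Galnt17, the latter listed here as Wbscr17. They came from homozygous parents, so litter and genotype cannot be told apart. The labels give the strain as C57BL/6, whereas most WT library names carry B6C3 and the methods of the study describe a C57BL/6 by C3H/He cross, and the study used males. No replicate number recurs between libraries, so each was taken as a different mouse and CB and HC values as unpaired. The P14 CB libraries carry only serial numbers, which do not show whether their mice also gave HC tissue. In bulk tissue, fewer cells of a type and less RNA per cell cannot be told apart. Pcdh7 lies on a chromosome that the translocation joins (chr5:58109260-58520590, NCBIM37), and none of the members with a position lies on the other.

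The clustered protocadherins lie in tandem, and each neuron uses a small set of them. In the alpha and gamma clusters, a variable first exon with its own promoter is spliced to constant exons that all genes of the cluster share, while the beta genes are single-exon genes. The proteins bind the same isoform on a neighboring cell and serve self-avoidance of dendrites and axons, synapse formation and neuron survival. The C-type genes at the end of the alpha and gamma clusters are used more steadily from cell to cell. The nonclustered genes lie apart and include the delta-1 group (Pcdh1, Pcdh7, Pcdh9, Pcdh11x) and the delta-2 group (Pcdh8, Pcdh10, Pcdh17, Pcdh18, Pcdh19), which mark subsets of neurons and circuits. Pcdh19 is an epilepsy gene in humans. Pcdh8, also called arcadlin, is induced by activity in hippocampal neurons, Pcdh12 is made by endothelial cells, Pcdh15 forms part of the tip links of sensory hair cells, and Pcdh21 is known from photoreceptors and from the mitral and tufted cells of the olfactory bulb.

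Promoters are shown for the nonclustered genes that the comparisons turn on most, namely Pcdh8, with the widest gap between regions among the genes with high counts, Pcdh17, whose genotype difference in CB changed with age, and Pcdh20, which was called in CB at each age. The windows are from RefSeq on GRCm38.p6, from 250 bases before to 50 after the start of the gene, read 5′ to 3′ on the strand of the gene. Capitals mark the GC box GGGCGG, the TATA box TATAAA or the E box CACGTG on either strand. Of the 14 nonclustered genes, 11 have a window here, 4 of them with a GC box, 2 with a TATA box and 0 with this E box. Among 32851 promoter windows of the same length, 35.7% hold the GC box, 13.6% the TATA box and 7.15% the E box. The window of Pcdh8 is chr14:79771263-79771562 on the minus strand and holds 1 TATA box, that of Pcdh17 is chr14:84443313-84443612 on the plus strand and holds 1 GC box, and that of Pcdh20 is chr14:88471347-88471646 on the minus strand and holds none of these motifs. The window of Pcdh17 has 26 CG dinucleotides, that of Pcdh8 14 and that of Pcdh20 4, against a median of 7 over all windows.
Pcdh8: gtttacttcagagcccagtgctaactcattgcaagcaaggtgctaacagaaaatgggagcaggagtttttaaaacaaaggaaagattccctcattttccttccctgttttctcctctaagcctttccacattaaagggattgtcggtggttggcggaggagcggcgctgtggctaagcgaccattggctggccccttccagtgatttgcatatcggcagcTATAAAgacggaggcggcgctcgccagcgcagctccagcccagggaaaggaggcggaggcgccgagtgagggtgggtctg
Pcdh17: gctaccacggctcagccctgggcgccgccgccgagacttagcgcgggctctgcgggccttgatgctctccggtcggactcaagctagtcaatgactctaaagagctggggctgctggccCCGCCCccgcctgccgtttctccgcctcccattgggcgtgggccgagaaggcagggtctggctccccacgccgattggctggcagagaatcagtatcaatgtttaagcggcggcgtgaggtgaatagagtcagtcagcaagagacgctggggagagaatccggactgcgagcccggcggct
Pcdh20: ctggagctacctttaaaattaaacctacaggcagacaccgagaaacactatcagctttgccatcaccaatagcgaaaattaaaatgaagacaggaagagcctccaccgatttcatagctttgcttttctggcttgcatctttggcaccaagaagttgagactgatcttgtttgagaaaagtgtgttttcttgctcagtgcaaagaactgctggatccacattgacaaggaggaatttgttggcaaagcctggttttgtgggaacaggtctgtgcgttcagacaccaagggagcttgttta

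Between 2563968 and 40564789 reads per library fell on genes, with the fewest in P35 HC and the most in P14 CB, and protocadherins took 0.0932% to 0.137% of them. Levels are given as CPM, read counts brought to a common library size with the TMM method of edgeR over all 24 libraries. Differences are log2 fold changes from edgeR's quasi-likelihood test, each fitted on the libraries of the comparison. The standard error was derived from that test, as the size of the log2 fold change over the square root of the F statistic. A gene was called when its p, after Benjamini-Hochberg adjustment across every gene in the fit, was at most 0.05. Genes with too few reads were not tested. Wbscr17 was called lower in 16GsoT/T in P14 CB (-1.05), P35 CB (-0.31) and P14 HC (-0.46), and differed by -0.62 without a call in P35 HC (adjusted p = 0.12). Auts2 was called higher in P35 CB (0.46) and lower in P14 HC (-0.51). Markers of cerebellar granule neurons and Purkinje cells were called higher in CB than in HC at each age (8 of 8 and 6 of 6 tested). Of the 9 hippocampal neuron markers, 8 were called lower in CB at P14 and 9 at P35. The P14 CB libraries stand apart, with 65.9% (WT) and 67.0% (16GsoT/T) of reads on genes against 37.7% to 42.3% in the other groups, so age and region contrasts that include them cannot be told apart from that sequencing run. In each comparison of regions or ages the groups were also on different lanes, and in P14 HC the genotypes were, so lane and group cannot be told apart there. In P35 CB, where the libraries share a lane, 37.6% to 37.7% of reads fell on genes in WT and 42.3% to 42.4% in 16GsoT/T. A difference between these libraries other than genotype thus cannot be told apart from genotype in P35 CB either. The 16GsoT/T P35 CB library C21 also stands apart. The gene that most exceeded the other P35 CB libraries in it was Pcdh21, followed by Dlx1, and the summed level of 9 olfactory bulb markers (Dlx1, Dlx2, Sp8, Omp, S100a5, Doc2g, Scgn, Th and Trh, picked after the values were seen) was 71.5 CPM in C21, 6.67 to 7.44 in the other 16GsoT/T and 10.9 to 11.4 in the WT libraries of P35 CB, and 31 to 54.6 in HC. Of that list, Dlx2, Sp8 and S100a5 were at 0 in every WT P35 CB library. Calls that were lost without C21 are given with and without it.

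**Figure D1:**
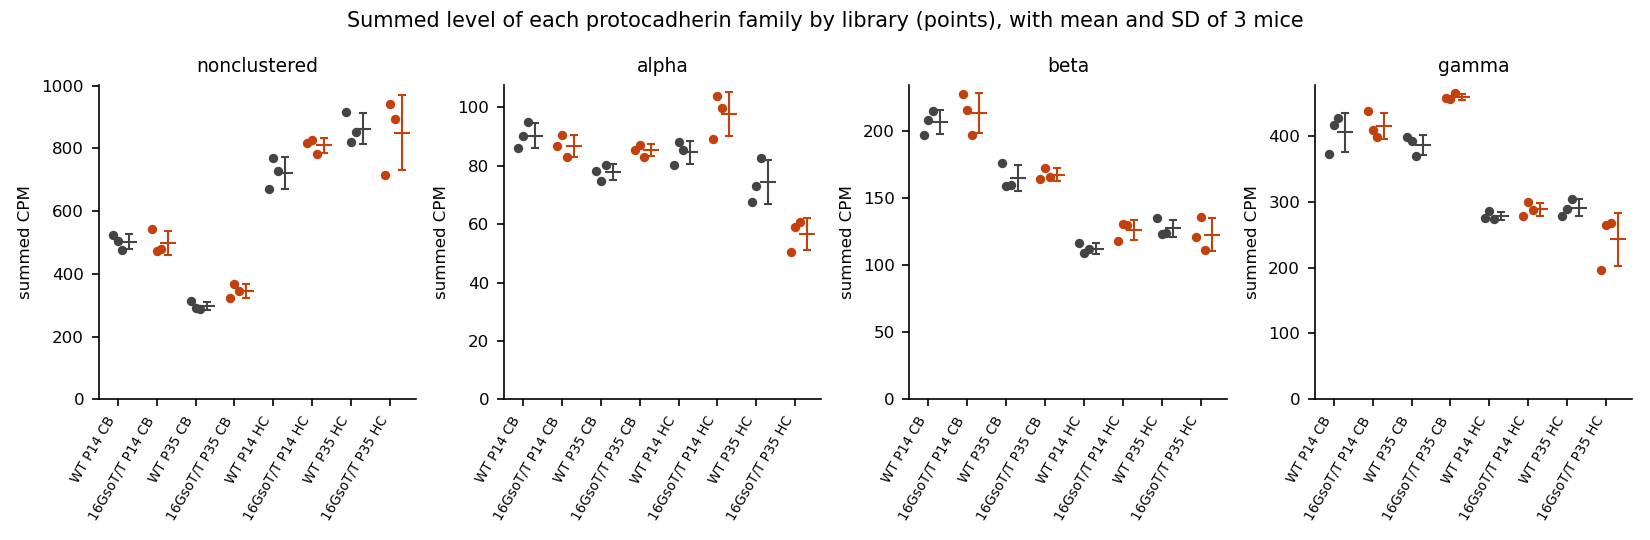
Summed CPM of the nonclustered, alpha, beta and gamma protocadherins in each of the 24 libraries (points), by group on the x axis, with the mean and SD of 3 mice as a bar (gray WT, orange 16GsoT/T). The nonclustered sum was highest in HC, and the beta and gamma sums were highest in CB.

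Nonclustered genes carried the most reads in HC and clustered genes in CB. In WT, the summed level of the nonclustered genes in CB was 502.5 ± 23.96 CPM at P14 and 298 ± 12.4 at P35, and in HC it was 722 ± 50.8 and 863 ± 48.6 (mean ± SD, n = 3 mice, as in all values with ±). The clustered genes summed to 702 ± 42.5, 629 ± 21.8, 475 ± 6.33 and 492 ± 16.1 CPM in the same order. Most of the clustered sum came from gamma genes, with 386 ± 14.9 CPM in WT P35 CB and 290.5 ± 12.9 in WT P35 HC, and the least from alpha genes, with 77.8 ± 2.71 and 74.4 ± 7.52. A few C-type genes held much of their family's reads. Pcdhgc3 took 55.3% ± 1.49 of the gamma reads in WT P14 CB and 23.4% ± 4.67 in WT P35 HC, and Pcdhac2 took 51.5% ± 1.53 and 42.3% ± 3.96 of the alpha reads. The other genes with the highest mean CPM of their families were Pcdha12 and Pcdhac1 (6.41 and 5.28), Pcdhb17, Pcdhb20 and Pcdhb16 (15.2, 14.1 and 13.3), and Pcdhgc5 and Pcdhga11 (33.4 and 16.7). How the counting treated the constant exons that alpha and gamma genes share is not given in the sources used here. Between 0.099% and 0.22% of the reads were set aside as ambiguous between genes.

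Per kilobase of annotated exon (GENCODE vM1 on NCBIM37, 12 nonclustered genes with a length), Pcdh9 had the highest mean level in each WT group, with 48.7 ± 3.80 CPM per kb at P14 and 31.6 ± 2.92 at P35 in CB, and 23.4 ± 3.05 and 32.7 ± 2.23 in HC. In WT CB, Pcdh7 came next (10.6 ± 0.794 at P14 and 4.84 ± 0.349 at P35 CPM per kb), below every Pcdh9 library. At P14 it stood apart from Pcdh17 (7.49 ± 0.674), which overlapped with Pcdh10 (7.21 ± 0.897). At P35, the ranges of neighbors from Pcdh7 to Pcdh17 in this order (Pcdh7, Pcdh10, Pcdh1, Pcdh20, Pcdh17) overlapped each time. In WT HC, Pcdh20 (20.5 ± 2.80 at P14 and 31.0 ± 6.25 at P35 CPM per kb) followed Pcdh9 and overlapped with it, and Pcdh8 came after it (17.7 ± 2.94 and 16.0 ± 3.13). Pcdh18, Pcdh15, Pcdh11x and Pcdh12 stood at the end of the order in HC, all with group means of 1.10 CPM per kb or less. In WT CB the lowest were Pcdh15 at P14 (0.514 ± 0.0855) and Pcdh12 at P35 (0.159 ± 0.0324). This order depends on the length used, which counts every annotated exon (21940 bases for Pcdh15 and 3714 for Pcdh9). By CPM, Pcdh15 (11.27) lay above Pcdh12 (4.547) in WT P14 CB, and Pcdh9 (86.87) below Pcdh20 (107.4) in WT P14 HC. The beta genes ranged, in WT P14 CB, from 6.08 ± 0.161 CPM per kb for Pcdhb17 down to 0.699 ± 0.0766 for Pcdhb6, with Pcdhb1 at 0.0450 ± 0.0187. Pcdhb1 had at most 5 reads in any library, and Pcdha8 and Pcdh24 at most 15, so these genes were close to the limit of detection in either region.

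The WT libraries enter the comparisons of region, age and genotype alike, so these share samples. The question of where each gene is used was asked by comparing CB with HC in WT mice. By sign, the tested nonclustered genes were split at P14, with 7 lower and 6 higher in CB, and at P35 all 12 were lower in CB. Some of them were nearly absent from CB. At P14, 7 of 13 tested nonclustered genes were called lower in CB and 3 higher, beside 38.4% and 38.8% of all genes, and their median log2 fold change was -0.49 against 0.01 over all genes. At P35, 9 of 12 were called lower and 0 higher (0 higher at an unadjusted p under 0.05 too), beside 28.5% and 27.5% of all genes, with a median of -1.51. Shares this high among all genes mean that a call by itself sets no gene apart. Among the delta-2 genes, Pcdh8 had 4.76, 3.28 and 3.3 CPM in the WT P14 CB libraries and 66.6, 84.2 and 61.8 in WT P14 HC, and it had 1.43, 3.32 and 2.25 against 77.9, 53.8 and 59.97 at P35. Every HC library was above every CB library by a wide margin. The difference came to -4.23 (standard error 0.167, adjusted p = 7.42e-09) at P14 and -4.77 (standard error 0.229, adjusted p = 1.53e-09) at P35. Pcdh19 was also lower in CB, with 16.9, 11.6 and 13.2 CPM against 60.7, 77.9 and 58.1 at P14, and -2.25 (standard error 0.153, adjusted p = 3.45e-07) at P14 and -3.76 (standard error 0.17, adjusted p = 8.59e-10) at P35. Pcdh20 had 18.2, 16 and 19.9 CPM in P14 CB and 113, 118 and 90.8 in P14 HC, a difference of -2.60 (standard error 0.115, adjusted p = 1.6e-08), and -3.30 at P35. Pcdh21 had counts of 69, 22 and 10 at P14 and 2, 1 and 1 at P35 in CB, and of 257, 257 and 203 and 32, 41 and 45 in HC. It was thus near the limit of detection in WT CB at P35, with fitted differences of -4.36 and -5.61, the latter against libraries with 1 or 2 reads.

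Other nonclustered genes differed less between regions. Pcdh1 was lower in CB at each age (-1.40 at P14 and -1.98 at P35), as were Pcdh10 (-0.49 and -1.43) and Pcdh15 (-0.97 and -1.38), and all of these were called. Pcdh9, a delta-1 gene, was called higher in CB at P14, with 181, 195 and 167 CPM against 81.9, 78.9 and 99.8 (log2 fold change 1.04, standard error 0.0971, adjusted p = 3.71e-06). At P35 its difference was -0.11 (standard error 0.0898, adjusted p = 0.323). Pcdh7 was called higher in CB at P14 (0.26) and lower at P35 (-0.93). Pcdh17 differed by 0.00 (standard error 0.117, adjusted p = 0.975) at P14 and was called lower in CB at P35 (log2 fold change -1.59, standard error 0.1, adjusted p = 2.32e-08). Pcdh12 was called higher in CB at P14 (0.90), while the 10 endothelial markers had a median of 0.16 there, with 4 called higher and 3 lower. Pcdh11x (0.54 and -0.42) and Pcdh18 (0.19 and -0.59) were called at neither age. Pcdh24 was not tested.

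**Figure D2:**
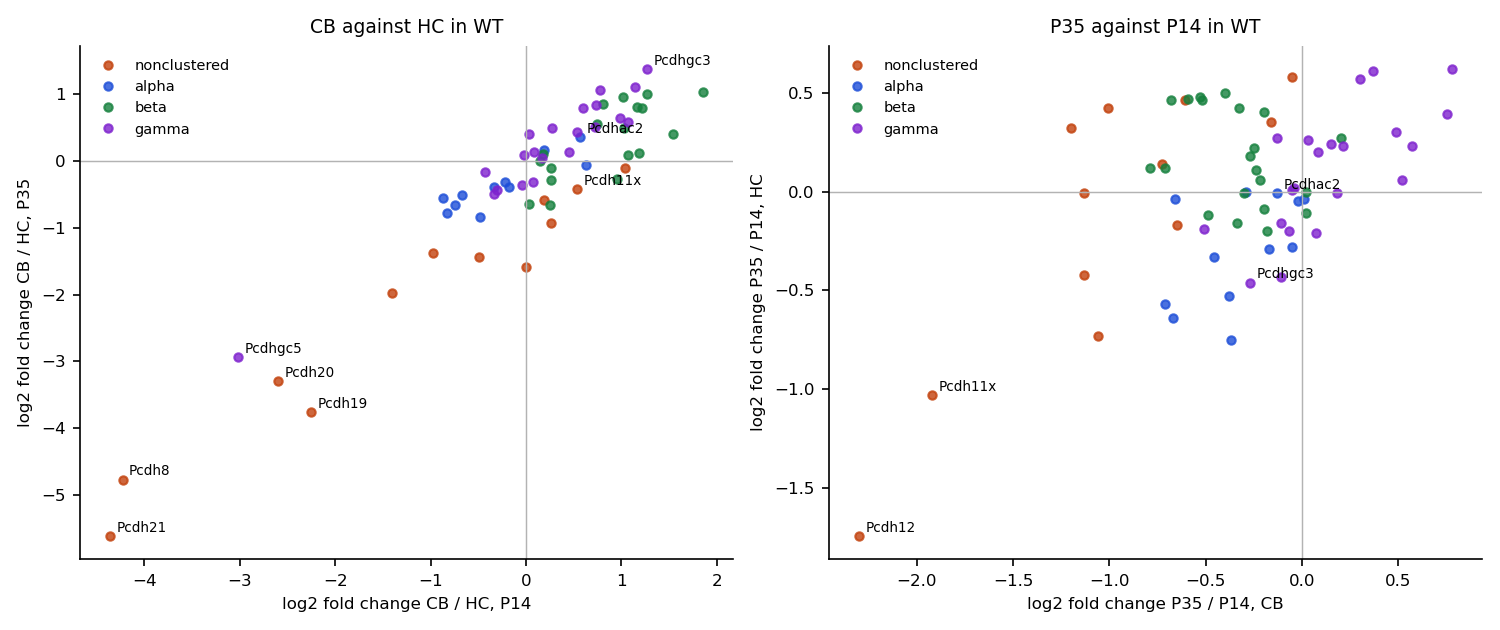
Log2 fold change of each tested protocadherin in WT mice between CB and HC (left, P14 on the x axis and P35 on the y axis) and between P35 and P14 (right, CB on the x axis and HC on the y axis), 1 point per gene, colored by family. Pcdh8 (-4.23 and -4.77) and Pcdh21 (-4.36 and -5.61) lie farthest toward HC, and Pcdhgc3 is at 1.27 and 1.38.

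The beta genes leaned toward CB. At P14, all 21 tested beta genes had a positive log2 fold change of CB over HC, with a median of 0.95. Of them, 14 (66.7%) were called higher and 0 lower, beside 38.8% and 38.4% of all genes. At an unadjusted p under 0.05, 0 were lower as well. Pcdhb16 had the largest difference, with 20.9, 20.7 and 22.8 CPM in CB and 5.12, 5.7 and 6.65 in HC (log2 fold change 1.86, standard error 0.117, adjusted p = 1.98e-07), followed by Pcdhb19 (1.54) and Pcdhb21 (1.34). The smallest were Pcdhb3 (0.03), Pcdhb12 (0.15) and Pcdhb9 (0.18), none of them called. At P35, 13 of 18 tested beta genes were positive, with a median of 0.26. Of the 18, 6 (33.3%) were called higher and 1 (5.56%), Pcdhb7, lower (-0.66), beside 27.5% and 28.5% of all genes. Pcdhb16 (1.04), Pcdhb8 (1.0) and Pcdhb15 (0.96) were the highest at that age. DESeq2 did not call Pcdhb7, Pcdhb8 or Pcdhb15 there. Of 13 tested alpha genes, 5 were called lower in CB at P14, a share of 38.5% beside the 38.4% of all genes (Pcdha1, Pcdha6 and Pcdha4 the lowest, -1.13, -0.87 and -0.83) and 2 higher (Pcdha10, 0.63, and Pcdhac2, 0.57). At P35 Pcdha4 was called lower (-0.78) and Pcdhac2 higher (0.36). DESeq2 called Pcdhac2 but not Pcdha4. With each library left out in turn, Pcdha4 was called only without W481.

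Within the gamma cluster, the C-type genes took opposite sides. Pcdhgc3 had 206, 236 and 230.1 CPM in WT P14 CB and 93.3, 92.4 and 89.96 in WT P14 HC (log2 fold change 1.27, standard error 0.0713, adjusted p = 8.58e-08). At P35 the values were 192, 179.7 and 181 in CB and 67.7, 79.6 and 55.8 in HC (log2 fold change 1.38, standard error 0.109, adjusted p = 2.06e-07). Pcdhgc5 had 5.42, 5.46 and 7.82 CPM in P14 CB and 44.4, 54.3 and 49.2 in P14 HC (log2 fold change -3.02, standard error 0.144, adjusted p = 2.67e-08), and it had 10, 11.6 and 9.56 and 66.4, 72.7 and 92.6 at P35 (log2 fold change -2.94, standard error 0.151, adjusted p = 3.02e-09). The regions did not overlap for either gene at either age. Pcdhgc4 was called higher in CB at P35 (0.50), but not by DESeq2. With each library left out in turn, Pcdhgc4 was called only without N10. Of the 22 gamma genes, 11 (50%) were called higher in CB at P14 and 3 (13.6%) lower, beside 38.8% and 38.4% of all genes. At P35, 8 of 21 (38.1%) were called higher and 1 (4.76%) lower, beside 27.5% and 28.5% of all genes. The highest among the A- and B-type genes were Pcdhgb8 (1.37) and Pcdhga6 (1.14) at P14, and Pcdhga6 (1.11) and Pcdhga5 (1.06) at P35. Pcdhga12 (-0.43) and Pcdhgb1 (-0.34) were called lower in CB at P14.

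**Figure D3:**
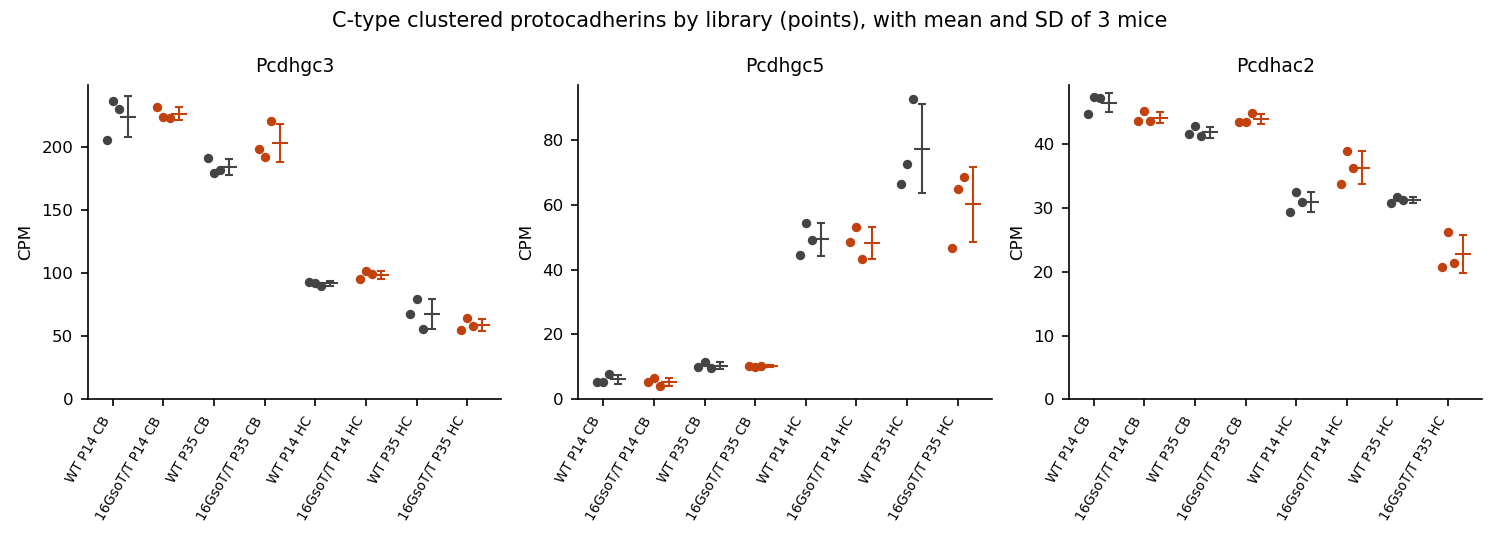
CPM of Pcdhgc3, Pcdhgc5 and Pcdhac2, C-type genes of the gamma and alpha clusters, in each of the 24 libraries (points), with the mean and SD of 3 mice per group (gray WT, orange 16GsoT/T). Pcdhgc3 lies at 179.7 CPM or higher in every CB library and at 101.5 or lower in every HC library, and Pcdhgc5 at 11.6 or lower in CB and 43.2 or higher in HC.

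The next question was how levels changed from P14 to P35 in WT mice. In CB most nonclustered genes fell. Of 12 tested, 9 were called lower at P35 and 0 higher (0 at an unadjusted p under 0.05), beside 30.9% and 32.2% of all genes, and the median was -1.03 against 0.00 over all genes. Pcdh12 fell the most (log2 fold change -2.30, standard error 0.256, adjusted p = 2.07e-06), from 4.42, 4.62 and 4.61 CPM to 1.11, 0.862 and 0.75. The endothelial markers had a median of -0.13 in the same comparison, with 3 called higher and 2 lower. Pcdh11x followed, from 9.27, 9.46 and 8.52 to 3.17, 2.34 and 1.5 CPM (log2 fold change -1.92, standard error 0.205, adjusted p = 1.27e-06). Pcdh17 went from 73.1, 64.1 and 76.5 CPM to 29.5, 29.9 and 33 (log2 fold change -1.20, standard error 0.0894, adjusted p = 2.87e-08). No library of P35 reached the level of any P14 library for these 3 genes. Pcdh7 (-1.13), Pcdh18 (-1.13), Pcdh15 (-1.06), Pcdh19 (-1.01), Pcdh10 (-0.73) and Pcdh9 (-0.61) were also called lower, whereas Pcdh8 (-0.65), Pcdh1 (-0.16) and Pcdh20 (-0.05) were not called.

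In HC the nonclustered genes moved in each direction, with 3 of 13 called higher at P35 and 3 lower, beside 12.6% and 12.2% of all genes. Pcdh20 rose from 113, 118 and 90.8 to 129, 163 and 195 CPM (log2 fold change 0.58, standard error 0.149, adjusted p = 0.0197). Pcdh9 (0.46) and Pcdh1 (0.35) rose as well, while Pcdh12 (-1.74), Pcdh21 (-1.06) and Pcdh15 (-0.73) fell. The others ran from -1.03 (Pcdh11x) to 0.42 (Pcdh19) without a call. Leaving out the WT library N6 left 4 of the 9 members called in HC with age, and leaving out W483 left 5.

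Among clustered genes, Pcdhgc3 fell and Pcdhgc5 rose with age in each region. Pcdhgc3 changed by -0.27 (standard error 0.0645, adjusted p = 0.00221) in CB and -0.46 (standard error 0.115, adjusted p = 0.0171) in HC. Pcdhgc5 changed by 0.78 (standard error 0.174, adjusted p = 0.00126) in CB, from 6.23 ± 1.37 to 10.4 ± 1.06 CPM, and by 0.62 (standard error 0.132, adjusted p = 0.00829) in HC, from 49.3 ± 4.99 to 77.2 ± 13.7 CPM. In CB, 6 of 21 beta genes were called lower at P35 (28.6%, beside 30.9% of all genes) and 0 higher (0 at an unadjusted p under 0.05), with Pcdhb11 (-0.79), Pcdhb7 (-0.71) and Pcdhb10 (-0.68) the lowest. Of 13 tested alpha genes, 4 were called lower in CB (30.8%, beside the same 30.9%), namely Pcdha11 (-0.71), Pcdha12 (-0.67), Pcdha10 (-0.66) and Pcdha9 (-0.46). These are neighbors in the order of the cluster in RefSeq, which was seen after the values were known. DESeq2 called only Pcdha12 among the alpha genes. With each library left out in turn, Pcdha9 was called only without the P14 library 1, and Pcdha11 only without that library or M29. Of 22 gamma genes in CB, 5 were called higher (Pcdhgc5, Pcdhga5, Pcdhga12, Pcdhga11 and Pcdhga4), beside 32.2% of all genes, and 2 lower (Pcdhgc3 and Pcdhga9). In HC, the only other clustered gene called with age was Pcdha12 (-0.64). No beta gene was called there, and 0 of 21 reached an unadjusted p under 0.05 or a call by DESeq2.

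The comparison of 16GsoT/T with WT asks which genes differed between these groups of mice, where genotype and litter go together. In P14 CB, a single member was called among the 70 tested. This was Pcdh20, with 30.7, 26.9 and 24.8 CPM in 16GsoT/T and 18.2, 16 and 19.9 in WT (log2 fold change 0.61, standard error 0.108, adjusted p = 0.0496 by edgeR). All 16GsoT/T libraries were above all WT libraries. Among all genes, 0.0938% were called higher and 0.413% lower. The call is close to the threshold and held only in the fit without the 16GsoT/T library 6 when each library was left out in turn, where the log2 fold change ran from 0.52 to 0.68 and the adjusted p from 0.0455 to 0.204, although the other 7 alternatives called it. None of the 56 tested clustered genes was called by edgeR or by DESeq2, 6 of them reached an unadjusted p under 0.05 (beside 8.89% of all genes), and their median was 0.04. The widest differences among them were -1.12 for Pcdha1, 0.52 for Pcdhgb5 and 0.49 for Pcdhb5. Of 9 tested activity-regulated genes, 2 were called higher in P14 CB, with a summed level of 96.2 to 122 CPM in 16GsoT/T and 63.2 to 88.9 in WT, and their part in the value of Pcdh20 was not tested.

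In P35 CB, 11 of 67 tested members were called, 9 higher and 2 lower in 16GsoT/T, beside 17.4% and 18% of all genes, so the share of members called higher (13.4%) or lower (2.99%) was below that of all genes in each direction. Without C21, 8 members were called. The called nonclustered genes were Pcdh1, Pcdh17 and Pcdh20, higher, and Pcdh15, lower. Pcdh1 had 55.9, 45.3 and 47.7 CPM in 16GsoT/T and 31.7, 36.7 and 36.2 in WT (log2 fold change 0.49, standard error 0.101, adjusted p = 0.00264). Pcdh17 had 41, 48 and 38.4 against 29.5, 29.9 and 33 CPM (log2 fold change 0.46, standard error 0.104, adjusted p = 0.00499). The genotypes did not overlap for either gene, and each was called whichever library was left out. Pcdh20 had 22.8, 27.8 and 26.5 CPM in 16GsoT/T and 22.5, 15.3 and 13.5 in WT (log2 fold change 0.58, standard error 0.166, adjusted p = 0.0172), with a margin of less than 1 CPM between the groups. Pcdh15 had 1.9, 3.83 and 2.53 CPM against 6.98, 4.92 and 4.12 (log2 fold change -0.95, standard error 0.304, adjusted p = 0.0291). Without C21, Pcdh20 was at 0.56 (adjusted p = 0.0516), Pcdh15 at -0.88 (adjusted p = 0.0877) and Pcdhb14 at 0.38 (adjusted p = 0.1). These calls did not rest on C21 alone. Pcdh20 was also not called without C20, M28 or M29, and Pcdh15 was also not called without C19, M27 or M28. The other nonclustered genes tested ran from -0.29 for Pcdh18 and -0.22 for Pcdh11x to 0.23 for Pcdh8, with Pcdh10 at 0.06, Pcdh7 at 0.05, Pcdh9 at 0.04 and Pcdh19 at 0.15. Pcdh12, the endothelial gene, had only 7, 7 and 4 reads in WT and 3, 7 and 2 in 16GsoT/T and was not tested.

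**Figure D4:**
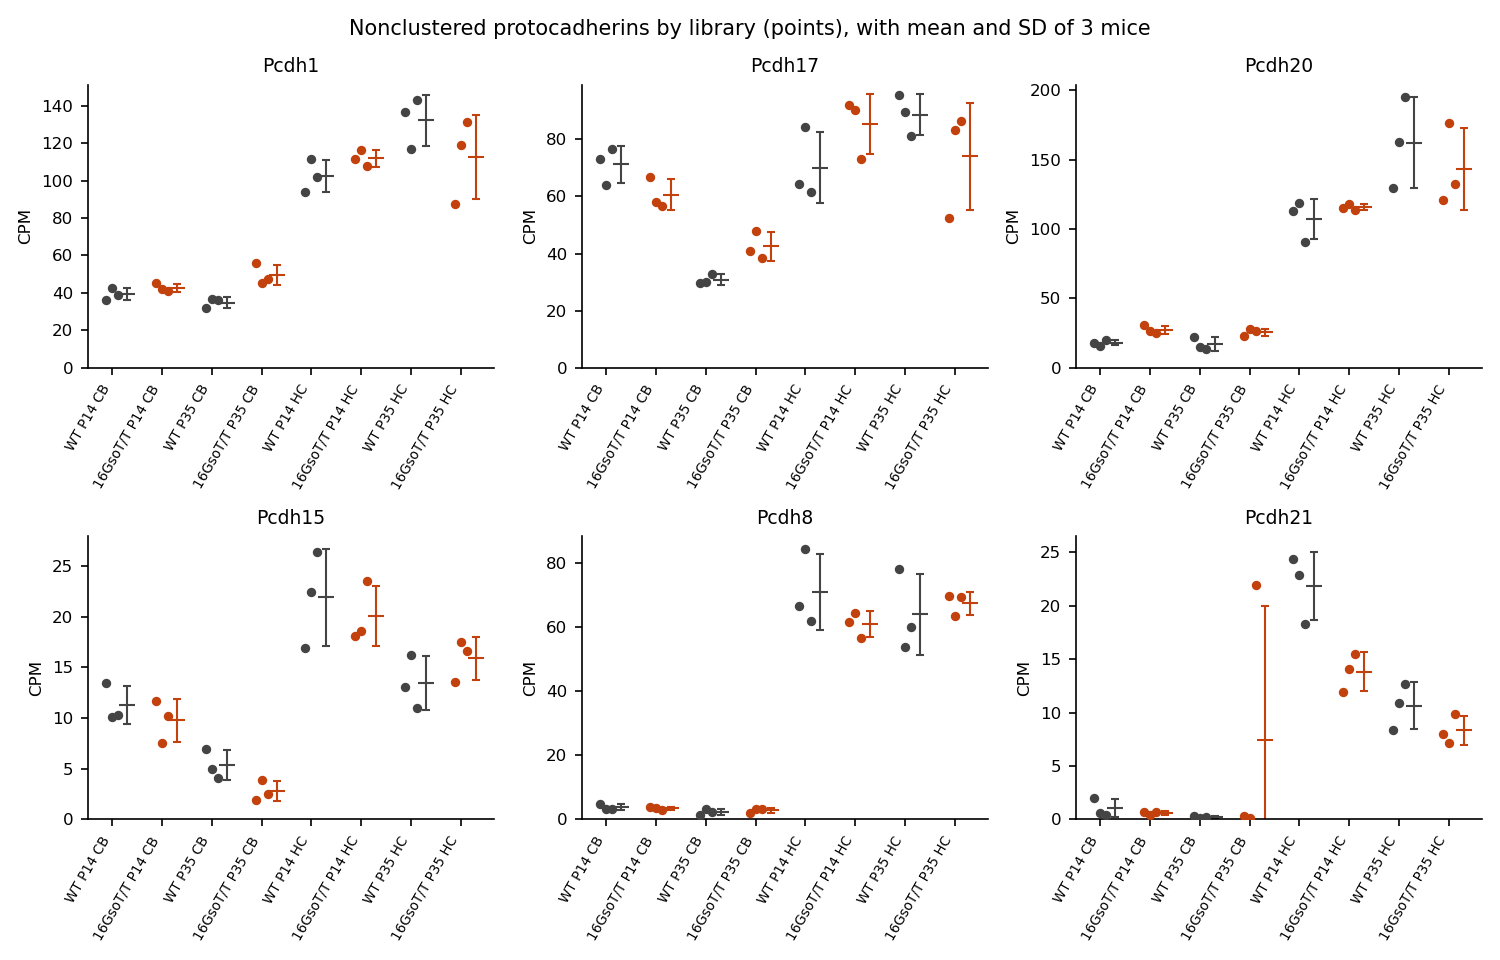
CPM of 6 nonclustered protocadherins in each of the 24 libraries (points), with the mean and SD of 3 mice per group (gray WT, orange 16GsoT/T; axes start at 0, where the bar of Pcdh21 ends). In P35 CB, Pcdh1 and Pcdh17 are higher and Pcdh15 is lower in 16GsoT/T, and Pcdh21 is high in a single library (21.9 CPM).

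Among clustered genes in P35 CB, the calls were in gamma genes (5 higher and 1 lower of 22) and Pcdhb14, with 0 alpha genes called by edgeR or DESeq2. The gamma shares were 22.7% higher and 4.55% lower, beside 17.4% and 18% of all genes. The summed gamma level was 459 ± 4.84 CPM in 16GsoT/T and 386 ± 14.9 in WT, with no overlap between the genotypes, and 19 of 22 gamma genes had a positive log2 fold change, with a median of 0.23 against 0.00 over all genes. Pcdhga9 had 7.79, 9.8 and 6.55 CPM in 16GsoT/T and 3.65, 3.69 and 3.37 in WT (log2 fold change 1.15, standard error 0.224, adjusted p = 0.00185). Pcdhgb7 had 20.4, 17.8 and 15.6 against 10.9, 9.23 and 8.99 CPM (log2 fold change 0.86, standard error 0.149, adjusted p = 0.000879). Pcdhgb6 had 20.9, 27 and 24.1 against 18.1, 16.9 and 12.2 CPM (log2 fold change 0.59, standard error 0.152, adjusted p = 0.0098). For these 3 genes the genotypes were apart, and each was called in all 6 fits that leave out a library and by DESeq2. Pcdhga2 (log2 fold change 0.68, standard error 0.216, adjusted p = 0.0276), Pcdhga12 (log2 fold change 0.52, standard error 0.152, adjusted p = 0.0183) and Pcdhb14 (log2 fold change 0.40, standard error 0.138, adjusted p = 0.0404) were also higher. Pcdhgb8 was the gamma gene that fell, with 1.21, 0.852 and 1.49 CPM against 2.54, 2.09 and 2.81 (log2 fold change -1.05, standard error 0.345, adjusted p = 0.0315), at counts of only 7, 6 and 10 and 16, 17 and 15. DESeq2 did not call Pcdhgb8, Pcdhga12, Pcdhb14 or Pcdh15. With each library left out in turn, Pcdhga2 was called only without C21, and Pcdhb14 only without C19. Pcdhgb8 was called only without C21 or M28, and Pcdhga12 was not called without C20, M28 or M29.

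Along the chromosome, in the gene order of RefSeq (GRCm38.p6), 5 of the 6 called gamma genes lie in a stretch of 7 neighbors from Pcdhga9 to Pcdhga12, a stretch chosen after the values were seen. In that stretch 6 of 7 genes were positive in P35 CB, and the median was 0.52 against 0.18 for the other 15 gamma genes. The uncalled neighbors Pcdhga10 and Pcdhga11 were at 0.40 and 0.24. The same stretch had a median of 0.17 in CB at P14, and of -0.06 at P14 and -0.10 at P35 in HC. In the alpha cluster, 11 of 13 tested genes were positive in P35 CB, the highest being Pcdha6 (0.63), Pcdha10 (0.56) and Pcdha9 (0.43), and Pcdha1 was the lowest (-0.68). The beta genes ran from -0.62 (Pcdhb4) and -0.55 (Pcdhb5) to 0.80 (Pcdhb2), with a median of 0.05. The C-type genes Pcdhgc3 (0.13), Pcdhgc5 (-0.05) and Pcdhac2 (0.05), which are among the most abundant of their families, were not called.

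**Figure D5:**
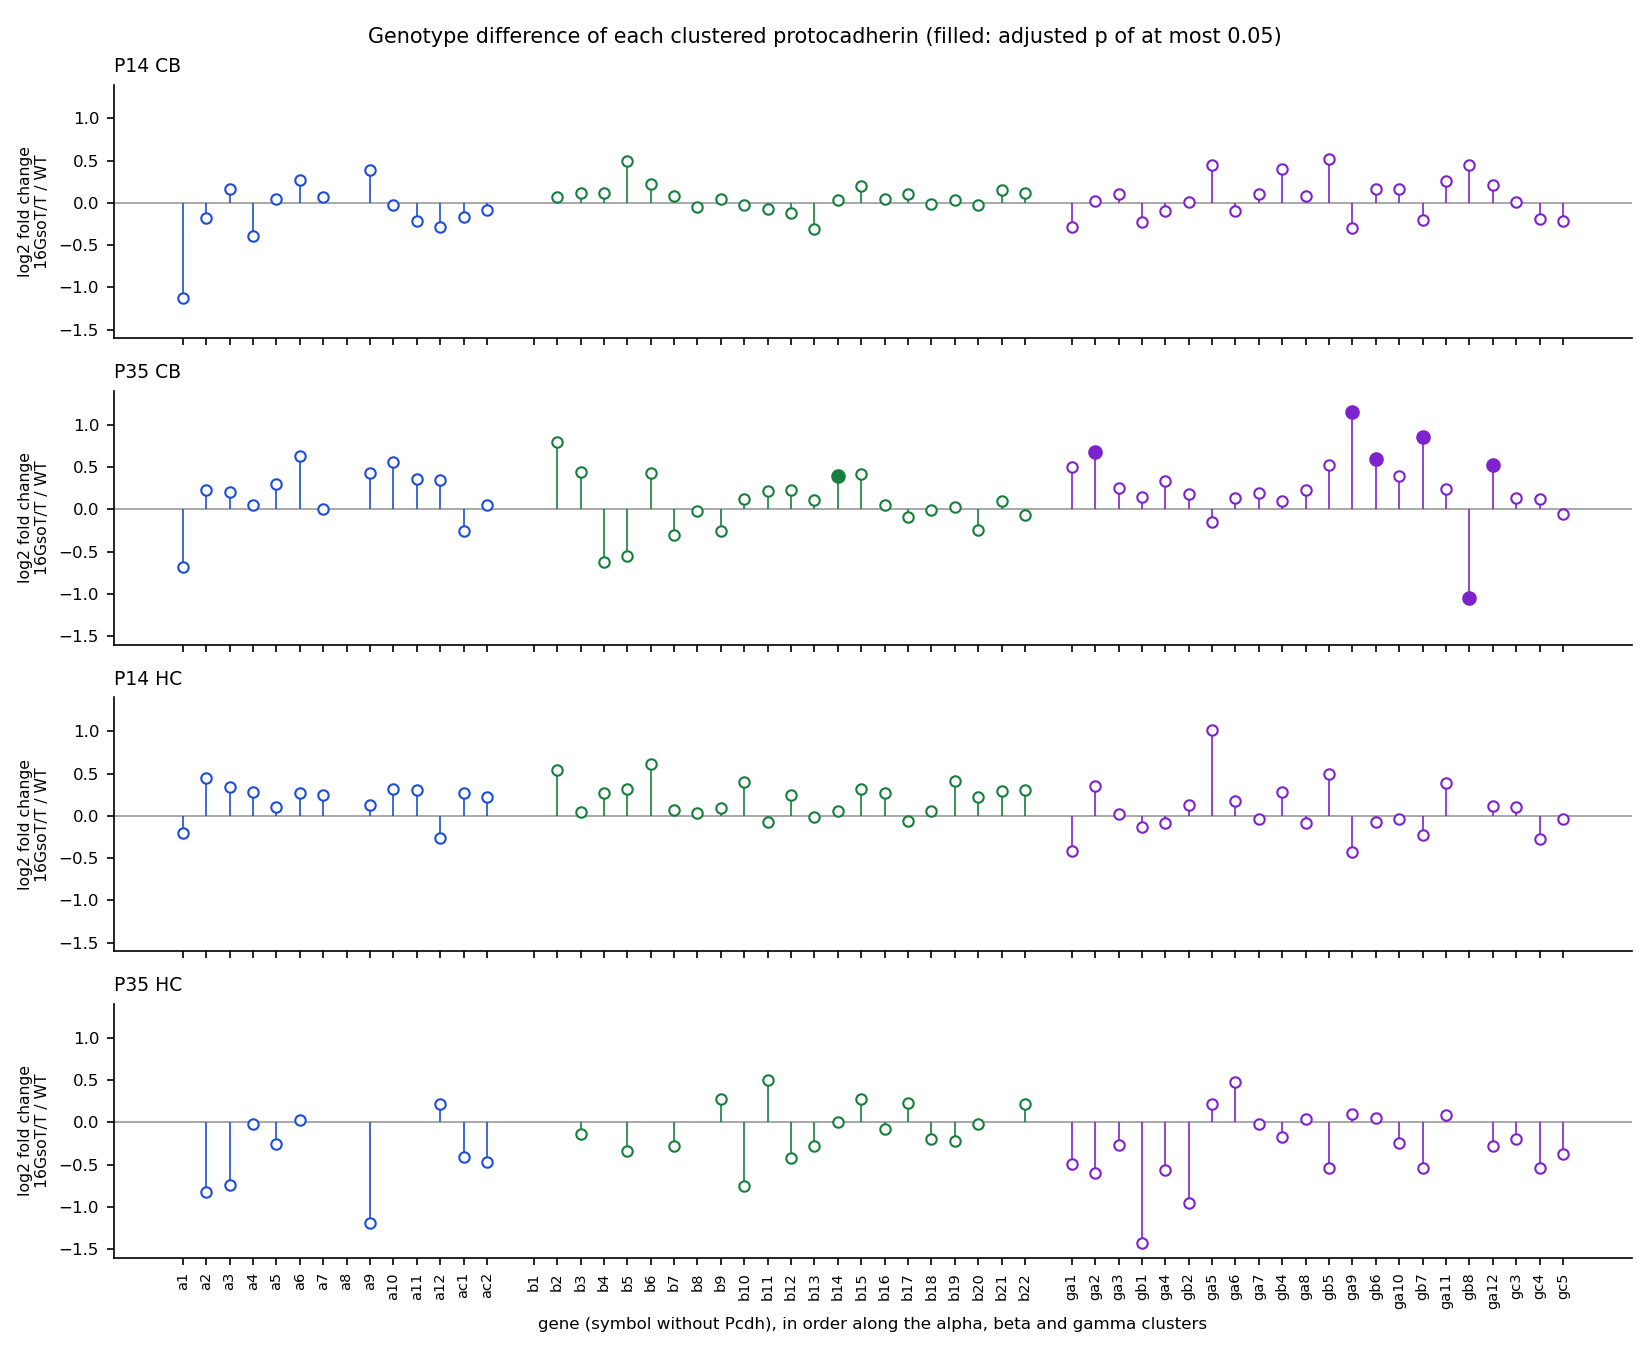
Log2 fold change of 16GsoT/T over WT for each clustered protocadherin, in order along the alpha (blue), beta (green) and gamma (purple) clusters on the x axis, with P14 CB at the top, then P35 CB, P14 HC and P35 HC. Filled points were called and a missing point was not tested. All filled points lie in P35 CB, 5 of them between Pcdhga9 and Pcdhga12, a stretch chosen after the values were seen. Of these, Pcdhgb8 was lower in 16GsoT/T.

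Other cell types differed between the P35 CB genotypes, and their part in these results was not tested. All 10 endothelial markers were called lower in 16GsoT/T (median -0.87), with a summed level of 112 to 120 CPM against 223 to 232 in WT. Meningeal fibroblast markers summed to 184 to 223 CPM against 272 to 309, and 6 of 8 were called lower. Of 7 choroid plexus markers, 2 were called lower, and their sum ran from 20.9 to 2100 CPM in WT and from 138 to 377 in 16GsoT/T. Of 8 tested activity-regulated genes, 4 were called higher. Of the 8 granule neuron markers, 4 were called higher and 1 lower. None of the markers of these 5 lists was at 0 in every library of a P35 CB group.

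In HC, no member was called in either genotype comparison. At P14, 0 of 68 tested members were called by edgeR, beside 0.361% of all genes higher and 0.453% lower. At an unadjusted p under 0.05 there were 11 members, 8 higher and 3 lower, beside 17.5% of all genes, and DESeq2 called 1, Pcdh21. This gene had 11.9, 14.1 and 15.5 CPM in 16GsoT/T and 24.4, 22.9 and 18.2 in WT, with no overlap (log2 fold change -0.66, standard error 0.136, adjusted p = 0.0684 by edgeR). Pcdh10 and Pcdh21 were called without the WT library N6. Of the clustered genes, 11 of 13 tested alpha genes and 18 of 21 beta genes had a positive log2 fold change (medians 0.27 and 0.24), while gamma genes were split, 10 positive and 11 negative. Pcdhga5 was the highest (log2 fold change 1.01, standard error 0.25, adjusted p = 0.1), and the fit of all 12 libraries of that age called it. Among the nonclustered genes, Pcdh11x (0.70), Pcdh7 (0.34), Pcdh9 (0.33) and Pcdh10 (0.33) were highest. The summed level of 7 striatal neuron markers ran from 78.5 to 588 CPM in WT and from 81 to 108 in 16GsoT/T, and its part in these values was not tested.

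At P35 in HC, 0 of 58 tested members were called by edgeR and 0 by DESeq2, beside 0.112% of all genes higher and 0.0225% lower. At an unadjusted p under 0.05 there were 7, beside 8.84% of all genes, of which 2 were higher (Pcdh11x, 1.0, and Pcdh7, 0.44) and 5 lower (Pcdhgb1, -1.43, Pcdha9, -1.19, Pcdhgb2, -0.95, Pcdhac2, -0.47, and Pcdhgc5, -0.37). Clustered genes leaned lower in 16GsoT/T, with 32 of 46 tested negative and a median of -0.23 against -0.01 over all genes. The summed clustered level was 422 ± 48.1 CPM in 16GsoT/T and 492 ± 16.1 in WT, with values of 367.6 (B10), 459 and 439.6 against 480.8 to 510.5. Without B10, the median of all tested members was -0.07 in place of -0.20. Pcdhac2 had 20.7, 26.3 and 21.4 CPM in 16GsoT/T and 30.8, 31.7 and 31.2 in WT (log2 fold change -0.47, standard error 0.158, adjusted p = 0.395). Without the WT library N10, Pcdhgb1 was called. The WT library N10 was prepared in the batch of the 3 16GsoT/T libraries and the other WT libraries in another. With this batch as a covariate, where N10 is the only WT library set against 16GsoT/T of its batch, the median of all tested members was also -0.07, 12 of the 58 changed sign, Pcdha3 from -0.74 to 0.92, and 26 of the 46 clustered genes were negative. Choroid plexus markers summed to 360 to 1780 CPM in 16GsoT/T and 81.9 to 95.1 in WT, and 4 of the 6 tested were called higher. Their part in these values was not tested.

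Whether the genotype difference changed with age or region was tested with interaction terms over 12 libraries each. In CB, the difference was not the same at P35 as at P14 for 6 of 70 tested members, beside 18.6% of all genes. The change was positive for Pcdh17 (log2 difference 0.69, standard error 0.139, adjusted p = 0.00323), Pcdhga9 (log2 difference 1.45, standard error 0.287, adjusted p = 0.00281) and Pcdhgb7 (log2 difference 1.06, standard error 0.198, adjusted p = 0.00201). Pcdh17 had 66.7, 58.1 and 56.7 CPM in 16GsoT/T and 73.1, 64.1 and 76.5 in WT at P14 (-0.24, not called), and was called higher at P35. The change was negative for Pcdhgb8 (log2 difference -1.52, standard error 0.385, adjusted p = 0.0124), with 2.63, 1.98 and 2.31 CPM against 1.61, 1.97 and 1.43 at P14, and for Pcdhb5 (log2 difference -1.05, standard error 0.318, adjusted p = 0.0311), with 8.18, 6 and 6.78 against 4.82, 5.14 and 4.91 CPM at P14 and 1.9, 3.41 and 2.83 against 4.76, 2.83 and 4.68 at P35. Pcdh17, Pcdhga9, Pcdhgb7 and Pcdhgb8 were called in every fit that left out a library. The sixth gene, Pcdh21, rested on C21. It had counts of 2, 1 and 147 in 16GsoT/T P35 CB and 2, 1 and 1 in WT, and 23, 14 and 29 and 69, 22 and 10 at P14. Its change was 5.97 (standard error 1.89, adjusted p = 0.0385), and 0.99 (adjusted p = 0.72) without C21, the library with the olfactory bulb markers. What part the source of these markers had in the value was not tested. Pcdhb5 was at -1.08 (adjusted p = 0.0591) without C21. In HC, 0 of 68 members changed with age by edgeR, beside 0.00666% of all genes. At an unadjusted p under 0.05 there were 13, all negative, beside 11.4% of all genes, and DESeq2 called 1, Pcdhac2.

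Between regions, 0 of 69 members were called at P14 by edgeR or DESeq2, beside 0% of all genes by edgeR, and 8 reached an unadjusted p under 0.05, beside 9.2% of all genes. At P35, 8 of 66 were called, beside 9.61% of all genes, and for each of them the log2 fold change of genotype was higher in CB than in HC. These were Pcdh1 (log2 difference 0.73, standard error 0.192, adjusted p = 0.0241), Pcdh17 (log2 difference 0.73, standard error 0.215, adjusted p = 0.0402), Pcdha9 (log2 difference 1.63, standard error 0.409, adjusted p = 0.0189), Pcdhac2 (log2 difference 0.52, standard error 0.155, adjusted p = 0.041), Pcdhga12 (log2 difference 0.80, standard error 0.245, adjusted p = 0.0487), Pcdhgb1 (log2 difference 1.58, standard error 0.397, adjusted p = 0.0186), Pcdhgb2 (log2 difference 1.12, standard error 0.295, adjusted p = 0.0234) and Pcdhgb7 (log2 difference 1.41, standard error 0.301, adjusted p = 0.00701). For Pcdhgb7, which was called higher in P35 CB, the levels were 3.86, 5.17 and 5.34 CPM in 16GsoT/T and 7.32, 7.72 and 5.63 in WT P35 HC. For Pcdha9, Pcdhgb1 and Pcdhgb2, the genotype differences in CB were 0.43, 0.15 and 0.18 and those in HC -1.19, -1.43 and -0.95, with none called on its own. With the library batch of P35 HC as a covariate, the differences of these 3 genes in HC were -1.37, -0.80 and -1.05, so that of Pcdhgb1 was smaller, and the interaction was not fitted with this term. Pcdhgb1 had only 10, 7 and 10 reads in 16GsoT/T and 18, 28 and 34 in WT P35 HC. All 12 tested alpha genes had a positive interaction value at P35, with a median of 0.58, and 19 of 21 gamma genes did, with a median of 0.63. Without C21, Pcdhac2 was at 0.52 (adjusted p = 0.0817) and Pcdhga12 at 0.82 (adjusted p = 0.0809). Fewer members were called without the WT library W483 (4), M27 (5) or M28 (5).

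Genes that act with the protocadherins were read from 3 lists, and their counts in P35 CB stand beside the 17.4% of all genes called higher and 18% called lower there. Of 21 regulators of the clustered locus, which includes the boundary factor Ctcf, cohesin and DNA methylation genes, 8 were called higher and 3 lower in P35 CB, and 0 in the other genotype comparisons. Dnmt1, the maintenance DNA methyltransferase, was higher by 0.73 (standard error 0.0812, adjusted p = 3.49e-05), and the cohesin gene Smc1a by 0.46 (standard error 0.0669, adjusted p = 0.000247), while the cohesin gene Stag2 was lower (-0.36). Ehmt1, a histone methyltransferase, was at 0.34. Of 29 partners and effectors, 9 were called higher and 2 lower in P35 CB. Reln, the secreted guide of neuron migration, was higher (log2 fold change 0.55, standard error 0.0627, adjusted p = 4.3e-05), as were the WAVE complex genes Cyfip2 (0.48) and Wasf1 (0.36), and Itgb1, a beta integrin, was lower (-0.53). Reln was lower in P14 HC (log2 fold change -0.75, standard error 0.133, adjusted p = 0.0482), the only call of the list there. Of 28 other cadherin superfamily genes tested in P35 CB, 8 were higher and 4 lower, with Cdh1 (-0.82), the endothelial gene Cdh5 (-0.77), Celsr3 (-0.77) and Cdh13 (0.76) the farthest from 0 among those called. The medians of the 3 lists in P35 CB were 0.10, 0.11 and 0.12.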

How the data were processed

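RNA of 24 libraries, each taken as 1 mouse, was sequenced from CB and HC of WT and 16GsoT/T mice at P14 and P35. The authors deposited raw counts of reads per gene, in a table for each age. Per the submitters' processing notes, the tools named are CASAVA 1.8.2, TopHat2 2.0.8, HTSeq 0.6.1, R 3.0.0 and edgeR 3.2.4, with the build NCBIM37. The annotation and the strand setting of the counting are not given in the sources used here. The labels name a TruSeq kit and the methods of the study a KAPA kit. Groups came from the labels, no column went unused, and 25 symbols that look like dates were kept as they are.

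Here, counts were tested with edgeR 4.0.16 (quasi-likelihood test, TMM, low genes removed with filterByExpr at count 10 and total 15) in R 4.3.3. Each comparison was fitted on its own libraries, genotype by age or region as an interaction over 12 libraries. The Benjamini-Hochberg adjustment ran across every gene in a fit, with a threshold of 0.05. The steps were checked on simulated data. Alternatives were DESeq2 1.42.0, its size factors, no composition factor, other filters on low counts, a fold limit of 1.5, a fit of all 12 libraries of an age, a library batch term for P35 HC and each library left out in turn. The members, lists and tests were chosen with earlier results of these data known. The genes named were every nonclustered member, the clustered genes that were called, had up to 3 of the highest or lowest log2 fold changes of their family or had the 3 highest mean levels, up to 4 called genes of each list, and the breakpoint genes. The libraries were taken as separate animals, 3 a group.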

Additional observations from a re-analysis of the deposited data

Results flagged for a closer look

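The genotype difference itself differed between groups for 14 results, each tested as an interaction term by edgeR's quasi-likelihood test with Benjamini-Hochberg adjustment over all genes. Between the ages in CB, the log2 difference (P35 over P14) was 0.69 for Pcdh17, 1.45 for Pcdhga9, 1.06 for Pcdhgb7, -1.52 for Pcdhgb8, -1.05 for Pcdhb5 and 5.97 for Pcdh21. The value of Pcdh21 was 0.99 (adjusted p = 0.72) without C21, the library with 147 reads of the gene, where the other P35 CB libraries had 1 or 2. Between the regions at P35, the log2 difference (CB over HC) was 0.73 for Pcdh1, 0.73 for Pcdh17, 1.63 for Pcdha9, 0.52 for Pcdhac2, 0.80 for Pcdhga12, 1.58 for Pcdhgb1, 1.12 for Pcdhgb2 and 1.41 for Pcdhgb7. Pcdhb5 between the ages and Pcdhac2 and Pcdhga12 between the regions were also not called without C21. Pcdha9, Pcdhgb1 and Pcdhgb7 were called whichever library was left out.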

How the results depend on the processing

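Calls in P35 CB and between regions at P35 depended on single libraries. No paired analysis was possible because the groups share no replicate numbers. No alternative was added after the fits given here, but the tests were chosen with earlier results of these data known. No called gene changed direction under the alternatives run. With the library batch as a covariate, 12 of 58 uncalled members of P35 HC changed sign. The summed beta level in P35 HC and the summed gamma level in P14 CB, whose log2 ratios were close to 0, changed sign with a library left out. In P35 CB, 11 members were called, 7 by DESeq2, 6 with a fold change of at least 1.5, and 6 to 8 with a library left out (6 without C20 or M28, 7 without M29). In P14 CB, leaving out a library gave 0 to 1 in place of 1. In P14 HC, where 0 were called, DESeq2 called 1, the fit of all 12 libraries of the age 1, and leaving out a library gave 0 to 2. In P35 HC, leaving out a library gave 0 to 1 in place of 0. With age in WT HC, leaving out a library gave 4 to 9 in place of 9. For genotype by age in HC, DESeq2 called 1 in place of 0. For genotype by region at P35, leaving out a library gave 4 to 9 in place of 8. The cause of these shifts was not tested. Of the values of single genes and of summed levels under an alternative, 1306 kept their direction and, where tested, their side of the threshold, 3 of the summed levels named above changed sign, and 193 kept the direction but no longer passed. Counts for the remaining comparisons stayed within 1.5 times under every alternative run.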
